A study of Mus musculus with 12 samples.

Results

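The replication-dependent histone genes supply the bulk of the histones that package newly made DNA. They were taken here as the protein-coding genes whose symbols begin with Hist1h, Hist2h, Hist3h or Hist4h, which gave 67 of the 54532 genes in the deposited tables: 6 of H1, 18 of H2A, 18 of H2B, 12 of H3 and 13 of H4. RNA was measured in primary mouse CD8+ T cells, a bulk population in which fewer cycling cells and less histone RNA per cell cannot be told apart. All cells had been activated in culture and given an siRNA, either siNTC (a control siRNA that targets no gene) or siCreb1 (against Creb1, a cAMP-responsive transcription factor), and then either the vehicle DMSO or trans-vaccenic acid (TVA, a dietary fatty acid) for 24 h. The 4 groups, siNTC, siNTC plus TVA, siCreb1 and siCreb1 plus TVA, had 3 libraries each, and the comparisons ask how TVA acts with and without Creb1. Because siCreb1 is a knockdown, some Creb1 RNA remained. The labels do not say whether the libraries came from separate mice, so p-values measure only the spread between these samples, which may be technical.

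Histone H1 binds the linker DNA between nucleosomes, and 2 copies each of H2A, H2B, H3 and H4 form the core around which DNA winds. Replication-dependent histone genes lie in clusters, have no introns in most cases and are transcribed mainly in S phase. Their mRNAs are unusual in ending at a conserved stem-loop in place of a poly(A) tail. Stem-loop binding protein, encoded by Slbp, binds it and acts in the processing, export and translation of the mRNA. Activated CD8+ T cells divide rapidly and need new histones in each S phase. The libraries were made with a SMARTer mRNA-Seq kit, and how well such a kit recovers RNA without a poly(A) tail was not measured in these samples.

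The stem-loop was searched for after the stop codon in the GENCODE vM21 transcripts of each gene, as a 6-base stem beginning with GG, a 4-base loop beginning with TT and without G, and the exact reverse complement of the stem. It was found in 44 of the 67 genes, 21 to 58 bases after the stop codon, in 6 versions. They are shown because they are the feature that sets these mRNAs apart, with the loop in capitals and the letters of DNA.
Hist1h3a, Hist1h1c and 24 more genes of H1, H2A, H2B and H3: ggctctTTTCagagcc
Hist1h4h, Hist1h4d and 5 more H4 genes: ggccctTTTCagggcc
Hist1h3c, Hist1h3e, Hist1h3f, Hist1h2bb, Hist1h2bk and Hist1h1t: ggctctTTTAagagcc
Hist1h4i and Hist2h4: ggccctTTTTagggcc
Hist1h4b and Hist1h4j: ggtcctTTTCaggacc
Hist2h2ac: ggctctTTTTagagcc
The 11 H4 genes with a stem-loop carried 3 versions that were found in no other class. In 22 genes an annotated transcript ran more than 100 bases past the loop, in 22 it ended within 100 bases of it, and in 23 no stem-loop of this form was found in the annotated transcript, Hist1h1b and Hist2h2be among them. The last count describes the annotation and not the RNA in the cells.

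Creb1 was checked first. Its level lay between 10.3 and 12.4 FPKM (fragments scaled by gene length and library size) in the 6 siNTC libraries and between 1.17 and 1.81 FPKM in the 6 siCreb1 libraries, so that 13.4% remained without TVA and 13.1% with TVA (two-sided exact permutation test, 6 against 6, p = 0.00216, the smallest that 924 divisions can give). The libraries held 16660234 to 24602484 reads, recovered from the FPKM values. The 8 CD8 T cell markers summed to 2362 to 2375 FPKM in the siNTC libraries with or without TVA and 2253 to 2283 FPKM in the siCreb1 libraries, and on knockdown without TVA 2 of the 8 rose and 4 fell by limma. The 8 myeloid markers, 2 of them tested, summed to 8.53 to 9.06 FPKM in siNTC plus TVA, 9.57 to 9.92 FPKM in siNTC, at most 11.6 FPKM in siCreb1 and 12.6 to 13.8 FPKM in siCreb1 plus TVA, and Lyz2 was higher on knockdown with TVA present (0.40 ± 0.11, limma adjusted p = 0.0478). The part of these markers in the histone differences was not tested. Over the 12 libraries the 4 CD4 T cell markers summed to 4.69 to 6.55 FPKM, with Cd4 at 0.92 to 1.75 FPKM. The 6 B cell markers summed to 9.66 to 14.3 FPKM. The 4 NK cell markers summed to 32.2 to 35.8 FPKM, of which Eomes had 27.1 to 30.6 FPKM. The 4 erythroid markers summed to 0.0250 to 0.594 FPKM, with the haemoglobin gene Hbb-bs at 0 in all libraries. Replicate 2 of siNTC plus TVA stood apart with ribosomal RNA at 2303 RPM (recovered reads scaled to 1000000 per library), against 714 to 1533 in the other 11 libraries.

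The histone genes were weakly represented. All 67 together took 52.3 to 71.1 RPM, and 15120 reads over the 12 libraries. Of the 67 genes, 58 had at least 1 read in at least 1 library, and 24 had a mean of at least 1 FPKM over the 12 libraries, which was the limit for testing. The number of tested genes was 4 of 6 for H1, 3 of 18 for H2A, 5 of 18 for H2B, 5 of 12 for H3 and 7 of 13 for H4. The median over the 67 genes was 0.533 FPKM. For scale, H2afz, a histone variant gene made throughout the cell cycle with a poly(A) tail, lay at 137 to 180 FPKM, and H3f3b, which encodes the replacement histone H3.3, at 112 to 127 FPKM.

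Reads were spread unevenly over the genes. Hist1h1c (histone H1.2; chromosome 13) had 230 to 338 reads per library and a mean of 8.90 FPKM, the highest per length of the 67 genes. Hist2h2be, an H2B gene of the chromosome 3 cluster, had 126 to 227 reads per library and 3.28 FPKM. Together with Hist1h1d, another H1 gene, they held 41.9% of all histone reads. Among the core histone genes, Hist1h4i (3.75 FPKM), Hist2h2be, Hist1h2bj (3.24 FPKM), Hist3h2ba (3.24 FPKM), Hist1h3c (2.37 FPKM) and Hist1h4d (2.15 FPKM) led per length, and the H2A genes were lowest, with Hist2h2ac (1.43 FPKM) and Hist1h2ao (1.32 FPKM) at their head. Fewer than 10 reads per library on average were found for 42 of the 67 genes. The 22 genes with an annotated transcript running over 100 bases past the loop held 57.6% of histone reads, and the 22 that ended within 100 bases held 15.5%. These shares are not scaled by length. Per length the order was the reverse, with medians of 0.411 FPKM for the former and 0.711 FPKM for the latter.

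Near-identical copies limited what could be measured. Histone genes of a class resemble each other, so every 50-base window of each gene was looked up in the transcripts of all other genes. The median gene shared 54.1% of its windows, with medians of 1.13% for H1, 73.0% for H2A, 46.9% for H2B, 62.0% for H3 and 39.5% for H4. All 5 genes that shared every window, Hist2h2aa1, Hist2h2aa2, Hist2h2bb, Hist2h3b and Hist2h3c1, had 0 reads in 12 libraries. A further 4 genes had 0 reads: Hist1h2br, with 88.7% shared, and Hist1h1t, Hist1h2aa and Hist1h2ba, with 0% to 38.2% shared, which are known from the testis. A count of 0 allows up to 0.0121 RPM over the 12 libraries together, for counting error only. The mean was at least 20 reads per library in 14 genes, and 13 of these shared under 50% of their windows. The values of strongly shared genes are therefore uncertain, since how the authors' counting treated reads that fit more than 1 gene is not given in the sources used here. Hist1h1e and Hist1h2be also overlap each other on the same strand.

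**Figure D1:**
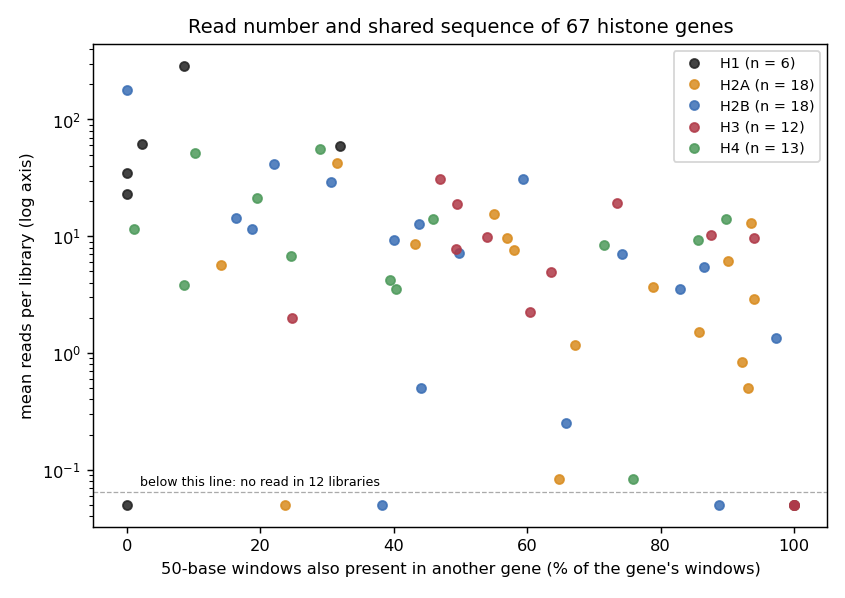
Each point is 1 of the 67 histone genes, coloured by class. The horizontal axis is the share of the gene's 50-base windows found in another gene (%), and the vertical axis, on a log scale, is its mean number of reads per library. Points under the dashed line had no read, and the 5 fully shared genes lie on top of each other at the lower right.

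The spread between replicates exceeded counting error for most genes. Over the 40 genes with a mean of at least 5 reads, the variance between replicates of a group was a median of 2.70 times that of counting alone, and for the 34 genes with a mean of 5 to 50 reads it was 2.84 times, beside 2.19 times for all 4430 genes in that range. The ratio was 3.54 in the 15 genes that shared at least 50% of their windows and 2.72 in the 19 that shared less. Hist3h2a (0.758 times) and Hist1h4h (1.21 times) varied little more than counting allows, whereas Hist1h2be (5.30 times) and Hist1h2bb (5.11 times) varied most.

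Summed by library, histone reads were higher with either treatment alone than with both or neither. Each siNTC library had 52.3 to 55.9 RPM, each siNTC plus TVA library 60.7 to 71.1, each siCreb1 library 63.6 to 68.7, and each siCreb1 plus TVA library 55.7 to 59.4. The siNTC plus TVA mean (65.6 ± 5.22, SD, n = 3) was 1.20 times the siNTC mean (54.6 ± 2.05), and the groups did not overlap. The siCreb1 mean (65.3 ± 2.90) was likewise 1.20 times that of siNTC. Within siCreb1 cells, TVA gave 0.889 times the reads (58.1 ± 2.11), again without overlap. These sums are descriptions with no test, and the comparisons share groups. Leaving out replicate 2 of siNTC plus TVA, the library rich in ribosomal RNA, lowered the TVA ratio in siNTC cells to 1.15.

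The 3 genes with the most reads differed little between siNTC, siNTC plus TVA and siCreb1. Hist1h1c, Hist2h2be and Hist1h1d together had 26.3 ± 0.452 RPM in siNTC, 26.6 ± 1.22 with TVA, 25.7 ± 1.11 in siCreb1 and 23.7 ± 0.306 in siCreb1 plus TVA. The other 64 genes together had 28.3 ± 1.81 in siNTC, 39.0 ± 5.96 with TVA, 39.6 ± 1.83 in siCreb1 and 34.5 ± 1.82 RPM in siCreb1 plus TVA. That division was made after the values had been seen.

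By class, H3 differed most from siNTC in siNTC plus TVA and in siCreb1 (2.09 and 2.01 times), and H1 (1.03 and 1.11 times) and H2B (1.12 and 1.06 times) least. The 12 H3 genes together had 3.34 ± 1.36 RPM in siNTC, 6.97 ± 2.07 with TVA, 6.72 ± 0.511 in siCreb1 and 5.39 ± 0.647 in siCreb1 plus TVA. The siCreb1 libraries (6.26 to 7.27) all lay above the siNTC libraries (2.22 to 4.85), while the siNTC plus TVA libraries (4.64 to 8.58) overlapped the latter. The 18 H2A genes had 4.34 ± 0.967 in siNTC, 6.64 ± 1.52 with TVA and 6.13 ± 0.125 in siCreb1, and the 13 H4 genes had 8.57 ± 0.583, 11.1 ± 1.34 and 10.6 ± 0.537. The 18 H2B genes were at 16.1 ± 0.742, 18.0 ± 0.662 and 17.1 ± 0.428 in the same order. The 6 H1 genes were at 22.3 ± 1.14, 22.9 ± 0.108 and 24.8 ± 2.12, and at 20.3 ± 1.64 in siCreb1 plus TVA, below all siNTC plus TVA and siCreb1 libraries.

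**Figure D2:**
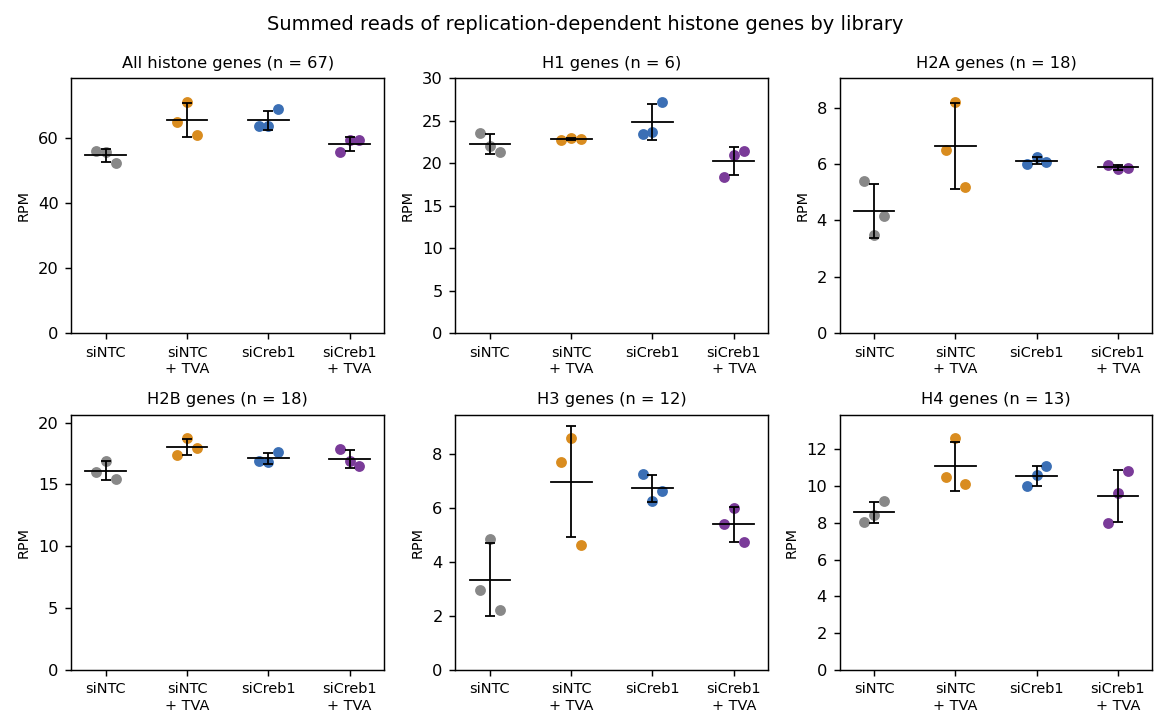
Summed reads (RPM) of all 67 histone genes and of each class, for the 12 libraries in 4 groups. Points are libraries, lines are group means and bars are SD (n = 3). The H3 panel shows siNTC at 2.22 to 4.85 and the siCreb1 libraries at 6.26 to 7.27, and H1 and H2B lie closer together.

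Gene by gene, TVA in siNTC cells raised 1 of the 24 tested histone genes (limma on log2(FPKM + 1), Benjamini-Hochberg adjusted p under 0.05), beside 7.38% of all 11550 genes tested. The median log2 change was 0.216 over the 24 genes and −0.006 over all genes tested, and 17 of the 24 changes were positive. Without replicate 2 of siNTC plus TVA, the library rich in ribosomal RNA, the median was 0.081. Of the 24 genes, 3 lay higher in all TVA libraries than in all siNTC libraries and 0 lay lower, beside 11.7% and 12.2% of all genes. The 24 genes passed the limit on their mean over all groups, so these counts do not stand for the 67. Hist1h2ak, Hist1h2ao, Hist1h3a, Hist1h3e, Hist1h3h, Hist1h3i, Hist1h4k and Hist1h4n had siNTC means of 0.634 to 0.962 FPKM. They passed the limit of 1 FPKM through groups in which they were higher, so the filter favours a rise above siNTC. Of the 34 further genes with reads, 23 had a higher mean with TVA and 9 a lower one.

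Hist1h3a, an H3 gene of the chromosome 13 cluster (chr13:23761853-23762386, minus strand), was the gene that rose. Its level was 0.375, 1.08 and 0.452 FPKM in siNTC, 4.36, 2.48 and 1.47 FPKM in siNTC plus TVA, 1.61, 1.84 and 2.46 FPKM in siCreb1, and 1.87, 1.57 and 0.933 FPKM in siCreb1 plus TVA. All TVA libraries lay above all siNTC libraries, but from 1.47 to 4.36 FPKM they were spread widely. The numbers behind these levels were 4 to 10 reads in siNTC and 16 to 43 reads with TVA. Hist1h3a shared 49.5% of its windows with other genes, so not all of its reads can be placed with certainty. Its variance between replicates was 3.35 times that of counting alone. The log2 change with TVA was 1.16 ± 0.27 (SE; limma adjusted p = 0.0274). Without replicate 1 of siNTC plus TVA it was 0.87 (adjusted p = 0.0691), and the call was also lost without replicate 2 of that group or replicates 1 or 3 of siNTC.

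The other genes that separated siNTC from siNTC plus TVA were Hist1h4d and Hist1h4h, both of H4. Hist1h4h was at 1.39, 1.22 and 1.44 FPKM in siNTC and at 1.73, 2.05 and 2.72 FPKM with TVA, a log2 difference of 0.42 ± 0.18 (limma adjusted p = 0.215). Hist1h4d was at 1.50, 1.62 and 1.82 FPKM in siNTC and at 2.52, 1.95 and 2.12 FPKM with TVA, a difference of 0.27 ± 0.12 (limma adjusted p = 0.221). Neither passed the test. Hist1h3b, an H3 gene too low for testing, had 0 reads in the siNTC libraries and 7, 9 and 1 with TVA. That is 5.99-fold higher when 3 reads are allowed over the siNTC group. The ratio takes the reads with TVA as exact, so it is not a lower bound. Hist1h3b shared 60.4% of its windows with other genes. This gene was singled out after its values had been seen.

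The differences with TVA in siNTC cells are given for the most abundant genes of each class, beside those of Hist1h3a and Hist1h4d above. Hist1h1c differed by −0.05 ± 0.08 on the log2 scale, Hist1h1b by 0.34 ± 0.16 (limma adjusted p = 0.266) and Hist2h2be by −0.02 ± 0.09. Hist1h4i differed by 0.13 ± 0.14, Hist1h3c by 0.45 ± 0.28, Hist1h2bj by 0.23 ± 0.32, Hist1h2ao by 0.42 ± 0.26 and Hist2h2ac by −0.24 ± 0.29. None of these genes passed the test, though the differences of Hist1h3c and Hist1h2ao were as large as that of Hist1h4h, with wider errors.

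Knockdown of Creb1 without TVA raised 1 of the 24 genes, beside 13.7% of all genes tested. The median log2 change was 0.263 (all genes −0.001), and 20 of 24 changes were positive. In 8 of the 24 genes every siCreb1 library lay above every siNTC library, and in 0 below, beside 15.5% above and 16% below among all genes. The 8 genes were Hist1h1a, Hist1h1b, Hist1h2ao, Hist1h3a, Hist1h3e, Hist1h3i, Hist1h4d and Hist1h4i, which cover H1, H2A, H3 and H4 but not H2B. Of these, Hist1h2ao, Hist1h3a, Hist1h3e and Hist1h3i had siNTC means of 0.634 to 0.949 FPKM. They passed the limit of 1 FPKM through groups in which they were higher, so the filter favours the count above.

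Hist1h1b, which encodes the linker histone H1.5, was the gene that passed. It shared 0% of its windows with other genes, so its reads can be placed. Its level was 1.95, 1.93 and 1.04 FPKM in siNTC, 2.40, 2.59 and 1.92 FPKM in siNTC plus TVA, 3.35, 2.89 and 4.08 FPKM in siCreb1, and 2.08, 1.40 and 1.65 FPKM in siCreb1 plus TVA. The siCreb1 libraries lay above the other 9 libraries. The log2 change on knockdown was 0.76 ± 0.16 (limma adjusted p = 0.0120), from 16 to 29 reads in siNTC to 48 to 67 reads in siCreb1. Fitted on the 6 libraries compared alone, its adjusted p was 0.0516.

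Other tested H1 and H3 genes were higher on knockdown on average without passing the test, except Hist1h1c. That gene differed by −0.11 ± 0.08 (limma adjusted p = 0.386). Hist1h3a differed by 0.88 ± 0.27 (limma adjusted p = 0.0559) and Hist1h1a, another linker histone gene, by 0.63 ± 0.20 (adjusted p = 0.0637). Hist1h1a was at 1.08, 1.16 and 1.17 FPKM in siNTC and at 2.13, 1.99 and 2.87 FPKM in siCreb1. The H3 gene Hist1h3i differed by 0.58 ± 0.20 (adjusted p = 0.0892), Hist1h3e by 0.61 ± 0.26 (adjusted p = 0.150) and Hist1h1e by 0.31 ± 0.13 (adjusted p = 0.142). Hist1h3i shared 87.6% of its windows with other genes and Hist1h3e 73.4%.

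**Figure D3:**
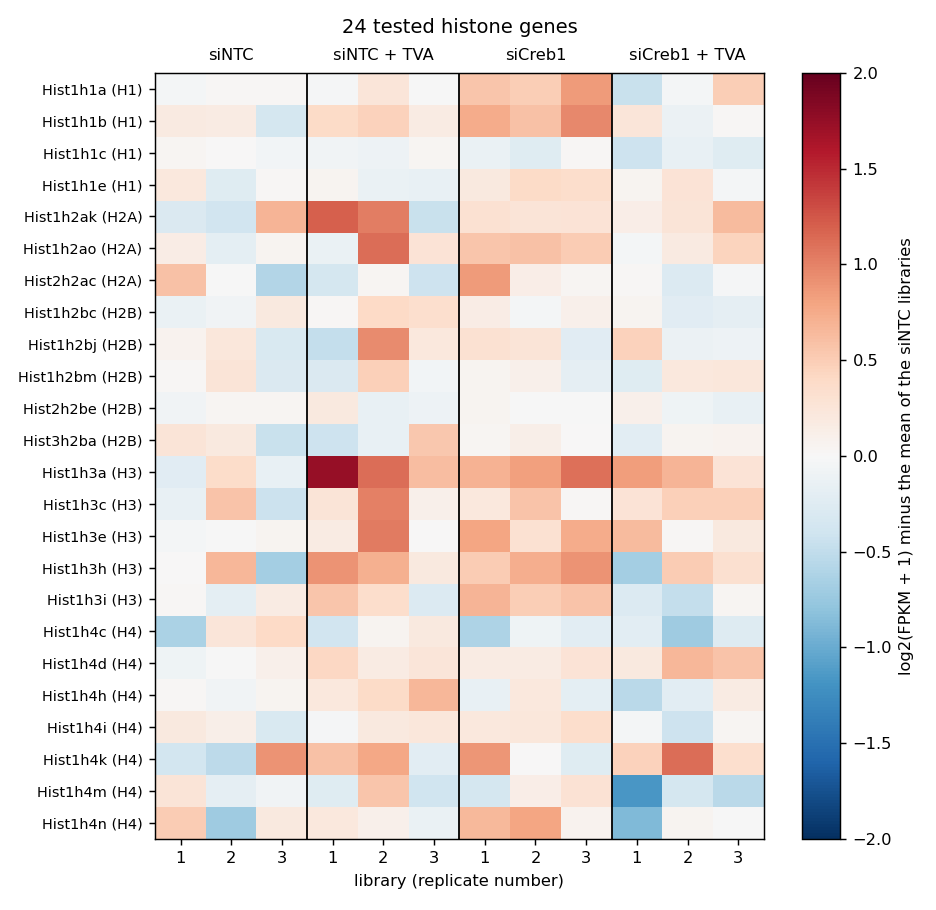
Each row is 1 of the 24 tested histone genes and each column 1 library. Colour is log2(FPKM + 1) minus the mean of the siNTC libraries, red for higher and blue for lower. Hist1h1a and Hist1h1b are red in the siCreb1 columns, and Hist1h3a is red in nearly all columns outside siNTC.

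In siCreb1 cells TVA moved no histone gene past the threshold (0 of 24 by limma, 7 at an unadjusted p under 0.05, 0 of 58 by limma-voom on the recovered reads), beside 0.537% of all genes. The differences ran downwards more often than up, with 19 of 24 negative and a median of −0.198 (all genes −0.001). In 8 of the 24 genes every siCreb1 plus TVA library lay below every siCreb1 library, and in 0 above, beside 9.01% and 8.09% of all genes. These were Hist1h1b, Hist1h2ao, Hist2h2ac, Hist1h3h, Hist1h3i, Hist1h4i, Hist1h4m and Hist1h4n. Of these, Hist1h3h, Hist1h3i, Hist1h4m and Hist1h4n had siCreb1 plus TVA means of 0.591 to 0.872 FPKM. They passed the limit of 1 FPKM through groups in which they were higher, so the filter favours the count below. Hist1h3i was at 2.09, 1.74 and 1.87 FPKM in siCreb1 and at 0.608, 0.389 and 0.991 FPKM in siCreb1 plus TVA, a difference of −0.82 ± 0.20 (limma adjusted p = 0.174). Hist1h1b differed by −0.71 ± 0.16 (adjusted p = 0.113). Among the 34 genes too low for testing, 17 had a higher mean and 16 a lower one, so the downward balance was not seen there.

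With TVA present in both groups, knockdown also moved 0 of the 24 genes past the threshold (limma; 4 at an unadjusted p under 0.05, and 0 of 58 by limma-voom), beside 10.1% of all genes. The median was −0.224 (all genes −0.012) with 19 of 24 negative, and −0.094 without replicate 2 of siNTC plus TVA. The filter favours negative changes here as well, since Hist1h3h, Hist1h3i, Hist1h4m and Hist1h4n passed it through other groups. Only Hist1h1c and Hist1h4h among the 24 had all siCreb1 plus TVA libraries below all siNTC plus TVA libraries, and 0 had them above, beside 17.6% and 14.3% of all genes. Hist1h4h was at 1.73, 2.05 and 2.72 FPKM against 0.621, 1.02 and 1.64 FPKM, a difference of −0.61 ± 0.18 (limma adjusted p = 0.0576). Hist1h1c was at 9.12, 8.86 and 9.90 FPKM against 6.97, 8.61 and 8.01 FPKM, a difference of −0.22 ± 0.08 (adjusted p = 0.106).

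The effect of TVA in siCreb1 cells minus that in siNTC cells was negative for 22 of the 24 genes, with a median of −0.481 on the log2 scale (all genes 0.002). It passed the test for 1 gene, beside 2.24% of all genes. That gene was Hist1h1b, with −1.05 ± 0.23 (limma adjusted p = 0.0438). The call was lost under most alternatives, with adjusted p between 0.0463 and 0.131 over all of them. Hist1h3a differed by −1.44 ± 0.38 (adjusted p = 0.0920), Hist1h3i by −1.02 ± 0.29 (adjusted p = 0.117) and Hist1h3h by −1.26 ± 0.52 (adjusted p = 0.290). By class the medians were −0.419 for H1, −0.538 for H2A, −0.068 for H2B, −1.02 for H3 and −0.53 for H4. Hist1h3a, Hist1h3e, Hist1h3h and Hist1h3i had siNTC means of 0.634 to 0.949 FPKM. Hist1h3h and Hist1h3i also had siCreb1 plus TVA means of 0.752 and 0.663 FPKM. They passed the limit of 1 FPKM through groups in which they were higher, so the filter favours negative differences. The 5 comparisons share their groups, so a high or low siCreb1 or siNTC library enters several of them.

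The promoters of Hist1h1b and Hist1h4h are shown, as the 250 bases before the RefSeq start on GRCm38, because Hist1h1b passed the test in the knockdown comparison and Hist1h4h holds a full cAMP response element, the palindrome TGACGTCA to which Creb1 is known to bind. Capitals mark matches on either strand to this element, to its half-site (TGACG), to the TATA box written as TATAAA, to the CCAAT box and to ATTTGCAT, the octamer found in H2B promoters.
Hist1h1b, chr13:21780626-21780875, minus strand: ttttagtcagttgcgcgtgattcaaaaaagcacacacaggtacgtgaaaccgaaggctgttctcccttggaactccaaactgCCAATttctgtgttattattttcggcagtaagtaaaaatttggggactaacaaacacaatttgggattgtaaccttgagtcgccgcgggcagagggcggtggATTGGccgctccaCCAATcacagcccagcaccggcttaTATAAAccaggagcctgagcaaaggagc
Hist1h4h, chr13:23530794-23531043, plus strand: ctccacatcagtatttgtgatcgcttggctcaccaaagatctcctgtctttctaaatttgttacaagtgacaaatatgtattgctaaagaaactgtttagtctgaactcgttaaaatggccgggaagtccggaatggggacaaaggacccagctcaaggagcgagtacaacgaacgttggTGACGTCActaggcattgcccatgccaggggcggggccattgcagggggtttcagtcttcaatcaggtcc
The Hist1h1b window held 3 CCAAT matches and 1 TATAAA, and the Hist1h4h window held the response element alone, which contains the half-site on both strands. Of the 67 genes, 62 had a RefSeq promoter in the reference. CCAAT was present in 51 of the 62, in all 18 H2A, all 16 H2B and all 6 H1 promoters but in 3 of 12 for H4, beside 33.8% of all 32851 promoters. TATAAA was present in 29 (all promoters 12.4%), and the octamer in 14, all of H2A or H2B (all promoters 1.60%). The half-site was present in 27 (all promoters 17.8%), of which 22 were of H2A or H2B, classes whose genes often lie in divergent pairs that share a promoter. A match in such a promoter, the octamer included, can be counted for both genes of the pair. The full response element was present in 4, Hist1h2ag, Hist1h2bj, Hist1h4a and Hist1h4h (all promoters 1.55%). Hist1h2ag and Hist1h2bj start on opposite strands at 22042944 and 22043214 of chromosome 13, so 1 element may be counted for both. On knockdown without TVA, Hist1h4h differed by −0.04 ± 0.18 (limma adjusted p = 0.914). On knockdown Hist1h2bj differed by 0.11 ± 0.32 without TVA (limma adjusted p = 0.867) and −0.15 ± 0.32 with TVA (adjusted p = 0.800). A match is a description of the letters and not a site of binding.

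Genes that make or handle histone mRNA were followed in a list of 22, of which 18 were tested. Slbp was at 15.2, 14.7 and 15.4 FPKM in siNTC and at 18.1, 18.1 and 19.2 FPKM with TVA. Its log2 change was 0.28 ± 0.03 (limma adjusted p = 0.000531), all TVA libraries being higher. It also rose on knockdown (0.13 ± 0.03, adjusted p = 0.0253), was lower in siCreb1 plus TVA than in siNTC plus TVA (−0.16 ± 0.03, adjusted p = 0.0163), and the TVA effects differed by −0.29 ± 0.05 (adjusted p = 0.00936). Eri1, a 3′ exonuclease that trims histone mRNA, rose with TVA in siNTC cells by 0.19 ± 0.04 (adjusted p = 0.00819). These 2 were the genes of the list that rose with TVA in siNTC cells, with 0 falling, beside 7.38% of all genes called. With TVA in siCreb1 cells 0 of 18 moved, beside 0.537% of all genes. Srrt, a partner of the cap-binding complex, was higher in siCreb1 plus TVA than in siNTC plus TVA (0.16 ± 0.04, adjusted p = 0.0286). The knockdown calls were lost for Slbp in 5 of 22 alternatives without TVA and 3 of 22 with TVA, and for Srrt in 7 of 22.

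Histone chaperones and importers carry new histones to the nucleus and to DNA. Of 24 tested, 14 rose and 0 fell with TVA in siNTC cells, beside 7.38% of all genes called, with a median log2 change of 0.186. The H3-H4 chaperone Asf1b was at 20.03, 21.1 and 20.1 FPKM in siNTC and at 31.1, 30.9 and 32.2 FPKM with TVA, a change of 0.60 ± 0.03 (limma adjusted p = 2.88e-06). Chaf1a, the large subunit of chromatin assembly factor 1, changed by 0.57 ± 0.07, Hat1, which acetylates new H4, by 0.35 ± 0.07, and Hjurp, the chaperone of the centromeric H3, by 0.32 ± 0.03. On knockdown without TVA 7 rose and 0 fell (all genes 13.7%). TVA in siCreb1 cells raised 1, Asf1b (0.18 ± 0.03, limma adjusted p = 0.0424), beside 0.537% of all genes. The Asf1b call was lost in 15 of 22 alternatives (adjusted p up to 0.196). With TVA present 5 fell on knockdown and 0 rose (all genes 10.1%), and the TVA effects differed for 8, all negative (all genes 2.24%). These last counts depended on single libraries: the 5 became 1 to 3 without any 1 library of siNTC plus TVA or siCreb1 plus TVA and 0 by TPM, and the 8 became 3 to 6, whichever library was left out.

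**Figure D4:**
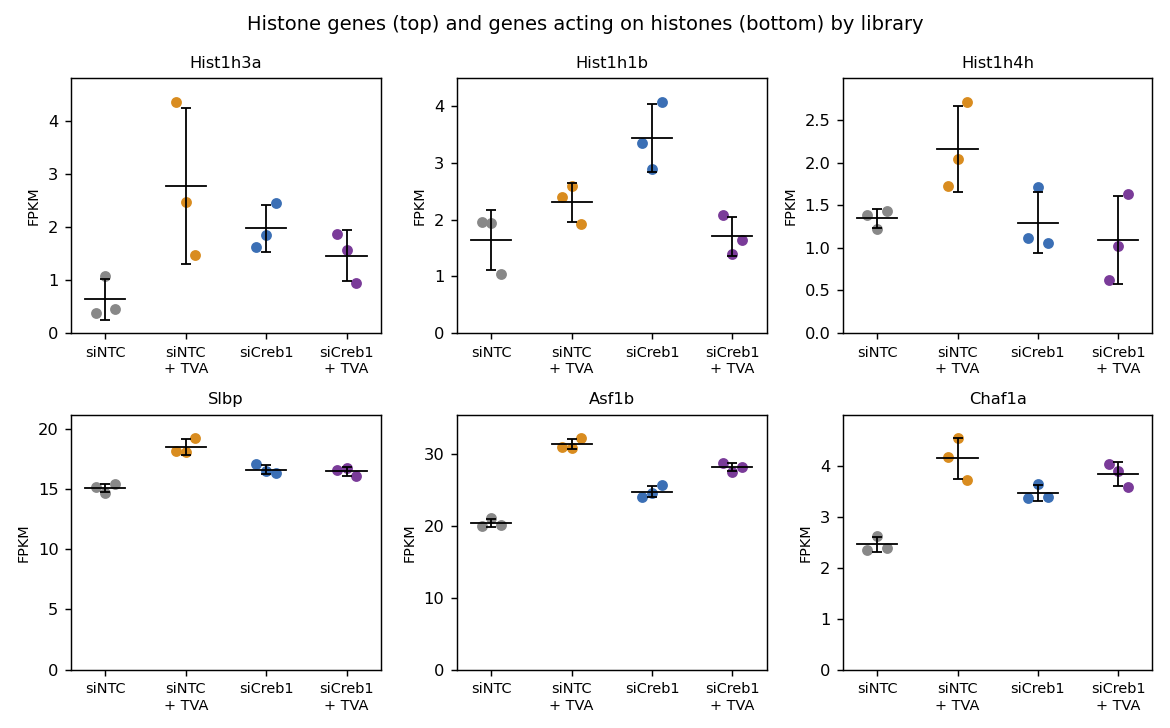
FPKM by library for 3 histone genes (top) and 3 genes that act on histones or histone mRNA (bottom). Points are libraries, lines are group means and bars are SD (n = 3). Asf1b lies at 20.03 to 21.1 FPKM in siNTC and 30.9 to 32.2 FPKM in siNTC plus TVA, a narrower spread than that of Hist1h3a.

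The list of replication-independent histone genes gave 5 that rose and 0 that fell of 10 tested with TVA in siNTC cells, beside 7.38% of all genes called. The count fell to 2 without replicate 1 or 3 of siNTC or replicate 1 of siNTC plus TVA, and to 3 without replicates 2 or 3 of siNTC plus TVA. H2afz rose by 0.32 ± 0.04 (limma adjusted p = 0.000457), and Cenpa (centromeric H3) by 0.23 ± 0.06, H2afx by 0.20 ± 0.04 and H2afv by 0.18 ± 0.04. On knockdown without TVA, H2afz was higher (0.13 ± 0.04) and H3f3a, another H3.3 gene, lower (−0.18 ± 0.04), 1 in each direction (all genes 13.7%), and the calls were lost in 12 and 6 of 22 alternatives, respectively. With TVA present 4 fell on knockdown and 0 rose (all genes 10.1%), and 2 fell without replicate 1 or 2 of siCreb1 plus TVA. For TVA in siCreb1 cells 0 of 10 moved by limma (1 at an unadjusted p under 0.05), beside 0.537% of all genes.

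Genes of DNA replication and S phase were followed beside the histone genes. All 44 of the list were tested. With TVA in siNTC cells 36 rose and 0 fell (median 0.389; all genes 7.38% called), with Rrm2, a subunit of ribonucleotide reductase, at 0.70 ± 0.03, Lig1, the replicative DNA ligase, at 0.68 ± 0.05 and Uhrf1, needed for maintenance of DNA methylation, at 0.62 ± 0.03. On knockdown 29 rose and 0 fell (median 0.227, all genes 13.7%). TVA in siCreb1 cells moved 0 by limma, beside 0.537% of all genes (median 0.052, 5 at an unadjusted p under 0.05). Of the 44 changes 36 were positive. In 16 genes every TVA library was higher and in 0 lower, beside 8.09% and 9.01% of all genes. With TVA present 9 fell on knockdown and 0 rose (median −0.097, all genes 10.1%). The 9 became 3 to 5 without any 1 library of siNTC plus TVA or siCreb1 plus TVA, 5 without replicate 3 of siCreb1 and 2 by TPM. The TVA effects differed for 23, all negative (median −0.351; all genes 2.24%), and for 19 to 22 when a library was left out. Their summed level was 736 to 748 FPKM in siNTC, 977 to 985 FPKM with TVA, 864 to 874 FPKM in siCreb1 and 892 to 900 FPKM in siCreb1 plus TVA. It thus stood higher in siCreb1 plus TVA than in siCreb1, where the histone sum stood lower. What part of the histone values goes with the S phase genes was not tested.

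**Figure D5:**
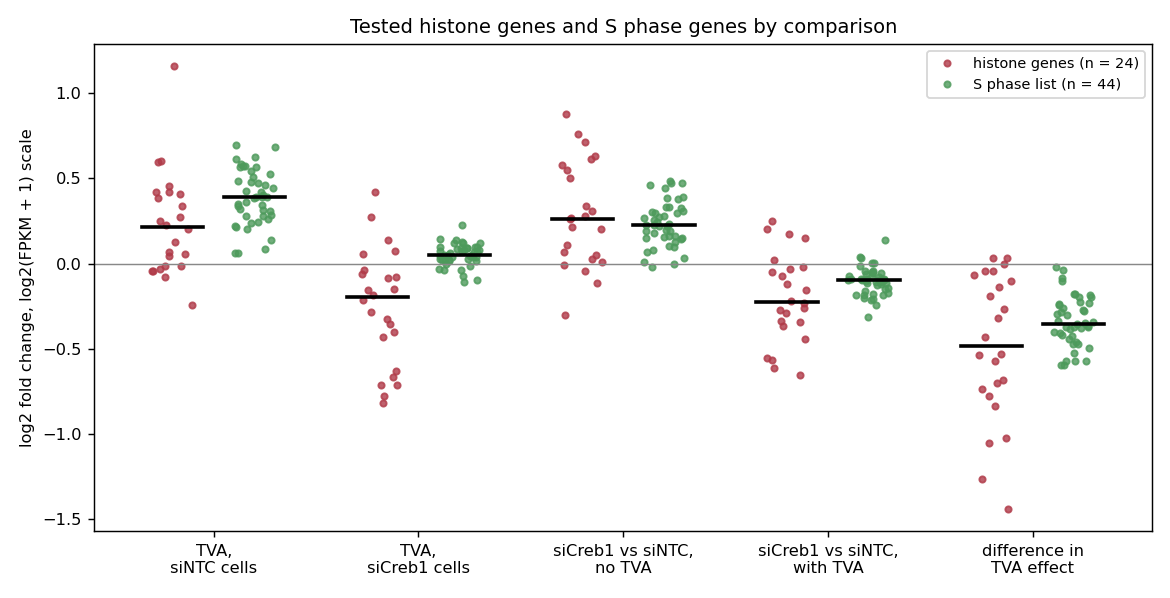
Log2 change of the 24 tested histone genes and the 44 S phase genes in the 5 comparisons, on the log2(FPKM + 1) scale. Each point is 1 gene and black lines are medians. The medians with TVA in siNTC cells are 0.216 and 0.389, and with TVA in siCreb1 cells −0.198 and 0.052, and the histone genes are spread more widely.

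Short RNAs that lack a poly(A) tail by their nature were read as a measure of how such RNA entered the libraries. Of the 14 found, 6 were at 0 in all libraries, and their sum, made up mostly of Rn7sk, was 26.5 to 30.5 FPKM in siNTC and 27.4 to 86.1 FPKM in siNTC plus TVA. It was 29.1 to 46.6 FPKM in siCreb1 and 34.6 to 58.1 FPKM in siCreb1 plus TVA, so the siCreb1 plus TVA libraries lay above the siNTC libraries and all other pairs of groups overlapped. The 86.1 FPKM came from replicate 2 of siNTC plus TVA, and replicates 1 and 3 were at 31.3 and 27.4 FPKM. Replicate 2 was also the library rich in ribosomal RNA and the one with the highest histone sum (71.1 RPM). By limma 0 of the 4 tested moved in any of the 5 comparisons, and 0 reached an unadjusted p under 0.05. Small nuclear RNA was at 18.6 to 23.0 RPM in the siNTC libraries with or without TVA and 24.2 to 30.4 in the siCreb1 libraries. Their part in the histone differences was not tested.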

How the data were processed

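RNA-seq was measured in 12 libraries, 3 for each of 4 groups, taken from the sample labels. The authors deposited FPKM values for each gene, that is, reads scaled by gene length and library size, on GRCm38 (mm10) per the submitters' processing notes. The aligner, the counting program and its treatment of shared reads are not given in the sources used here. FPKM times gene length was a whole multiple of 1 step per library for at least 99.995% of values (tolerance 0.05), which gave recovered reads. The 4 groups entered 1 limma 3.58.1 fit with a trend (R 4.3.3) of log2(FPKM + 1), over 11550 genes with a mean FPKM of 1 or more, and p-values were Benjamini-Hochberg adjusted over all of them, with 0.05 as the threshold. A fold change on this scale understates that of low genes. Intervals and floors (3 reads) cover counting error only. Shared windows (50 bases) and stem-loops came from GENCODE vM21 and promoters from RefSeq. Figures used matplotlib 3.10.9.

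Histone genes and gene lists were chosen with earlier results of these data known. The text names Creb1, every histone gene past the threshold in a comparison, the 2 with the highest mean FPKM in each class, those whose libraries did not overlap between siNTC and siNTC plus TVA, and up to 4 genes per list and comparison with the largest changes past the threshold. Others were singled out after their values were seen. Alternatives were another pseudocount (0.1), no filter on low values, a stricter one (5 FPKM), quantile normalization, TPM, a replicate block, no trend, limma-voom on recovered reads, the libraries compared alone and leaving out each library.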

Additional observations from a re-analysis of the deposited data

Results flagged for a closer look

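The effect of TVA differed between siCreb1 and siNTC cells, by limma's interaction test, for 11 of the genes named. Some genes were named because they passed this test, so the 11 are not a share of any list. Among all 11550 genes tested, 259 passed it (2.24%), 206 of them with a negative difference. For Hist1h1b the difference was −1.05 (adjusted p = 0.0438). For the genes acting on histones it was −0.29 for Slbp (adjusted p = 0.00936), −0.42 for Asf1b (adjusted p = 0.00145), −0.45 for Chaf1a (adjusted p = 0.0378), −0.32 for Hjurp (adjusted p = 0.00592) and −0.29 for Rbbp7 (adjusted p = 0.0205), and it was −0.33 for the variant histone gene H2afz (adjusted p = 0.00899). For the S phase genes it was −0.59 for Cdc45 (adjusted p = 0.00933), −0.59 for Lig1 (adjusted p = 0.00334), −0.57 for Rrm2 (adjusted p = 0.000122) and −0.57 for Uhrf1 (adjusted p = 9.21e-05). All are log2 differences from 3 libraries per group, and all were negative. The call was lost for Hist1h1b in 18 of 20 alternatives (adjusted p up to 0.131), for Chaf1a in 11 of 20 (up to 0.0953), for Rbbp7 in 6 of 21 (up to 0.0810) and for Slbp and Hjurp in 1 of 21 each, and in none for the other 6.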

How the results depend on the processing

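Counts of histone genes past the threshold were small and moved easily. For TVA in siNTC cells the count of 1 became 0 without a filter on low values, at a minimum of 5 FPKM (1 histone gene left) and on the libraries compared alone, and was 0 to 1 when a library was left out. For TVA in siCreb1 cells and for siCreb1 against siNTC with TVA the count of 0 was 0 to 1 when a library was left out. For siCreb1 against siNTC without TVA the count of 1 became 2 with a pseudocount of 0.1, with TPM and with limma-voom, 4 on the libraries compared alone, where Hist1h1b was replaced by Hist1h1a, Hist1h2ao, Hist1h3a and Hist1h3i, and 0 at a minimum of 5 FPKM, and was 1 to 3 when a library was left out. For the difference between the TVA effects the count of 1 became 0 with a pseudocount of 0.1, without a filter, at 5 FPKM, with TPM, without the trend and with limma-voom on all genes above 0, and was 0 to 2 when a library was left out.

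The replicate numbers are shared between groups, but correlations of same-numbered libraries were −0.059 to 0.06, so these libraries did not deviate together. Whether equal numbers mark a shared mouse or batch cannot be told from such correlations. A replicate block gave counts of 1 and 0 for TVA in siNTC and siCreb1 cells, 1 and 0 for knockdown without and with TVA, and 0 for the difference between the TVA effects, where the call on Hist1h1b was lost (adjusted p = 0.0730).

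Medians kept their direction except at 5 FPKM, where the single gene left, Hist1h1c, gave −0.046 for TVA in siNTC cells and −0.114 for siCreb1 without TVA. With limma-voom, which adds no pseudocount of 1 FPKM, the medians were 0.320, −0.331, 0.510 and −0.736 for TVA in siNTC cells, TVA in siCreb1 cells, knockdown without TVA and the difference between TVA effects, against 0.216, −0.198, 0.263 and −0.481. Summed histone reads with TVA in siNTC cells, 1.20 times, were 1.38 times without the 3 genes with most reads, an alternative chosen after seeing the data, and 1.15 to 1.25 times leaving out a library. In siCreb1 against siNTC, 1.20 times became 1.32 by TPM, 1.29 without Hist1h1c and 1.40 without the 3 genes, and was 1.17 to 1.21 leaving out a library. The ratios for TVA in siCreb1 cells (0.878 to 0.913) and for knockdown with TVA (0.854 to 0.925) stayed under 1 when a library was left out. The share of Creb1 left without TVA was 13.4% by FPKM and 13.8% by TPM. Low read numbers and near-identical copies limit what single histone genes can show.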
